A study of Homo sapiens with 2 samples.

Results

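The genes that encode the proteins of the cytosolic ribosome were examined in lists of RUNX2 and MTA1 binding peaks. Members were the protein-coding genes of chromosomes 1 to 22 and X in RefSeq whose symbol begins with RPL or RPS and a digit, together with RPSA, RPLP0, RPLP1 and RPLP2, and with the RPS6K kinase genes left out. The rule used no measured value and found 89 genes of 19974 protein-coding genes. Of the 89, 52 were RPL genes, 34 were RPS genes (RPSA among them) and 3 encoded the stalk proteins. The rule also took in 3 readthrough genes (RPS10-NUDT3, RPL17-C18orf32 and RPL36A-HNRNPH2), which share exons with a ribosomal protein gene, and RPS19BP1, whose product binds RPS19 and is not itself a ribosomal protein.

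Chromatin was profiled by CUT&Tag in untreated MDA-MB-231 cells, an established human triple-negative breast cancer line with high metastatic capacity. CUT&Tag tethers a transposase to an antibody on its target, so that DNA near the bound protein is cut and sequenced. The 1 library of each of the 2 groups was made with an antibody against RUNX2, a DNA-binding transcription factor of bone development, or against MTA1, which belongs to NuRD, a complex that remodels nucleosomes and removes acetyl groups from histones. There was no replicate and no treatment, and no control library was analysed here, so no difference has a replicate check and no test was made. The labels name the same supplier for both antibodies, while the study's published methods name Abcam for RUNX2 and Santa Cruz Biotechnology for MTA1. The labels describe both CUT&Tag and adaptor ligation of precipitated DNA. The study asked which genes the factors bind. No expression was measured in these files, so neither the labelled cell line nor the output of any gene could be checked.

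Ribosomal proteins assemble with ribosomal RNA into a large and a small subunit, and cells make them in near-equal amounts from genes scattered over most chromosomes. Their genes are short and are transcribed at high rates in growing cells. Their mRNAs begin with a C followed by a run of pyrimidines, the 5′ terminal oligopyrimidine (TOP) tract, through which mTOR signalling sets their translation. Germline loss of 1 copy of several of them causes Diamond-Blackfan anaemia.

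The sequences around the starts of the members on which the results turn are given first. They run from 140 bases before the RefSeq start to 20 bases from it, 5′ to 3′ on the gene's own strand, in RefSeq's GRCh38.p14 assembly. Capitals mark the letters TGTGGT or TGCGGT on either strand, which match the core that RUNX proteins recognise, and the unbroken pyrimidine run that covers the start. RPS16, RPS3A, RPL18 and RPL27 were among the members with the highest RUNX2 scores, and RPS13 had the highest MTA1 score.
RPS16 (chr19:39435930-39436089, minus strand): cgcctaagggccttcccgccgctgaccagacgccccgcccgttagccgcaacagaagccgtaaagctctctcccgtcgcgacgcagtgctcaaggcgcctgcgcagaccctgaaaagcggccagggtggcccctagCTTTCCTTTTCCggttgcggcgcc
RPS3A (chr4:151099488-151099647, plus strand): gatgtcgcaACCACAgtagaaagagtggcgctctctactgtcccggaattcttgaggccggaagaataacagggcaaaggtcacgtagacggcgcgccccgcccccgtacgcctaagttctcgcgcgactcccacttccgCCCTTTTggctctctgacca
RPL18 (chr19:48619159-48619318, minus strand): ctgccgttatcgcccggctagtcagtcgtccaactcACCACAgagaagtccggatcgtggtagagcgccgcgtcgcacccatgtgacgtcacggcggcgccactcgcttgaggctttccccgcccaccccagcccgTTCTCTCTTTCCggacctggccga
RPL27 (chr17:42998279-42998438, plus strand): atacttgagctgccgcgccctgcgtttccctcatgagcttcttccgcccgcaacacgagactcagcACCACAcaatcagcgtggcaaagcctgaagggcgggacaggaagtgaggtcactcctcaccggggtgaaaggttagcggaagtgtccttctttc
RPS13 (chr11:17077648-17077807, minus strand): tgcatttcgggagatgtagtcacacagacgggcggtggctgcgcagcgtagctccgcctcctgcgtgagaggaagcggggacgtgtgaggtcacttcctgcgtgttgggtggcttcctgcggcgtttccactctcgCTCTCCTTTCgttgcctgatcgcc
The letters TGTGGT stood on the opposite strand in RPS3A, RPL18 and RPL27, where they read as ACCACA, beginning 131, 104 and 74 bases before the start, and the peaks of both libraries covered them. RPS16 and RPS13 held neither RUNX word in the RefSeq window of 250 bases before and 50 bases after the start. RPL27 alone of these 5 had no pyrimidine at its listed start.

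The next 6 windows belong to members with no RUNX2 peak near either end, and RPL10L was without an MTA1 peak as well. The remaining such gene, RPL26L1, is described with its peaks at inner starts.
RPS27 (chr1:153990622-153990781, plus strand): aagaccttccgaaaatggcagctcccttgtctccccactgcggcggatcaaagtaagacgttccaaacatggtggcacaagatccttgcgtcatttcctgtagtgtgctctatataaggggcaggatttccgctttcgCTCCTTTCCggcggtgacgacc
RPS3 (chr11:75399378-75399537, plus strand): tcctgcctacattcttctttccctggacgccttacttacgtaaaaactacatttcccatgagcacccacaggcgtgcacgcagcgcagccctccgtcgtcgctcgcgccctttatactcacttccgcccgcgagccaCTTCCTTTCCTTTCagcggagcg
RPS21 (chr20:62386963-62387122, plus strand): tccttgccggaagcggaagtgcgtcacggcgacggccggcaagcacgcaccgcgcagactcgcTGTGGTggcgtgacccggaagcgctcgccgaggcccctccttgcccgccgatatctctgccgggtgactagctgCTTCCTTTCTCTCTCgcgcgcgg
RPL38 (chr17:74203538-74203697, plus strand): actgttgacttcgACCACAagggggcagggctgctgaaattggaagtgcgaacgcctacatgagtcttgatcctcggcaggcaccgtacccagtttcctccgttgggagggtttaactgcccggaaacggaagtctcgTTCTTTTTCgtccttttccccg
RPS4X (chrX:72277229-72277388, minus strand): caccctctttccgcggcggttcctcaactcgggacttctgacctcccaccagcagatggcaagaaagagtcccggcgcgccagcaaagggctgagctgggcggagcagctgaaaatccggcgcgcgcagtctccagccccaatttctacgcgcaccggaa
RPL10L (chr14:46651762-46651921, minus strand): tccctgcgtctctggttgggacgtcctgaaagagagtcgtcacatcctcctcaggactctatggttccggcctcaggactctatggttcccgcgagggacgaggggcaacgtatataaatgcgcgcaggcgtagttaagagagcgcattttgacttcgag
RPL38 and RPS21 carried TGTGGT on one strand or the other although no RUNX2 peak lay there, and the MTA1 peak at each gene covered the letters. RPS27, RPS3, RPS4X and RPL10L held neither RUNX word. A match or its absence describes these letters in this window and says nothing of whether RUNX2 bound.

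A gene was counted as having a peak when at least 1 base of a peak lay within 1 kb of either end of the gene. On that measure nearly all ribosomal protein genes had a peak of both factors. RUNX2 peaks lay at 82 of 89 members, or 92.1% (95% exact interval 84.5 to 96.8, counting error over genes only), where 50% of all protein-coding genes had one. MTA1 peaks lay at 87 of 89, or 97.8% (92.1 to 99.7), where 51.1% of all protein-coding genes had one. The same 82 members had both, 92.1% against 44.0% of all genes, and at 81 of them (91.0%, 83.1 to 96.0, against 42.0% of all genes) a RUNX2 and an MTA1 peak overlapped. RPL34 was the exception among the 82, with a RUNX2 peak centred 286 bp and an MTA1 peak centred 77.5 bp from the same end of the gene, on opposite sides of it. No member had a RUNX2 peak without an MTA1 peak. Of all 19974 protein-coding genes, 9991 had a RUNX2 peak and 8791 had both. With MTA1 peaks at 97.8% of the members, few RUNX2-only members could occur.

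Ribosomal protein genes are short, with a median span of 5057 bp against 24170 bp for all protein-coding genes. Among the 5658 protein-coding genes that span at most 10 kb, 39.1% had a RUNX2 peak and 39.5% an MTA1 peak. The 73 members of that size had a RUNX2 peak in 68 cases (93.2%) and an MTA1 peak in 72 (98.6%), so the gap to genes of like size was wider than the gap to all genes. An end of another protein-coding gene lay within 1 kb of an end of 35 members, and a peak there cannot be assigned to one of the pair.

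Other groups of widely used genes were set beside them. Each group was taken by symbol alone, so it may hold genes that are not factors or subunits themselves. The symbols began with EIF, with PSMA, PSMB, PSMC or PSMD, or with MRPL or MRPS, each followed by a digit. Translation initiation factor genes had a RUNX2 peak in 48 of 55 (87.3%, 75.5 to 94.7) and an MTA1 peak in 49 (89.1%, 77.8 to 95.9). Proteasome subunit genes had 31 of 40 (77.5%, 61.5 to 89.2) and 37 (92.5%, 79.6 to 98.4). Mitochondrial ribosomal protein genes, which encode the separate ribosome of mitochondria, had 59 of 77 (76.6%, 65.6 to 85.5) and 61 (79.2%, 68.5 to 87.6). The intervals of the cytosolic ribosomal protein genes overlapped those of the initiation factor and proteasome genes in both libraries. They lay above those of the mitochondrial group for MTA1 and overlapped them by about 1 percentage point for RUNX2.

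**Figure D1:**
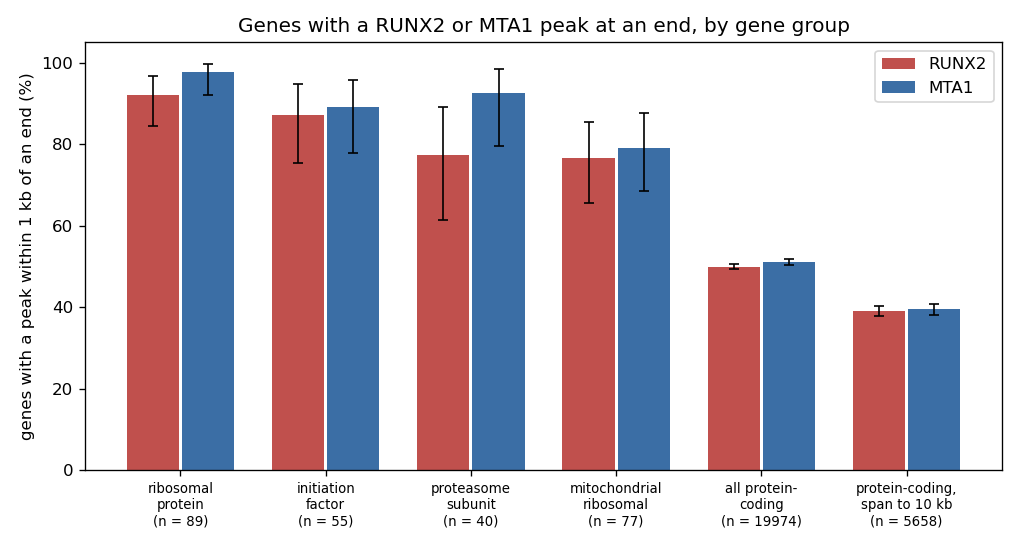
Percent of genes with a RUNX2 (red) or MTA1 (blue) peak within 1 kb of an end, by gene group, with the number of genes under each group and exact 95% intervals over genes as bars. Ribosomal protein genes stand at 92.1% and 97.8%, above the 50% and 51.1% of all protein-coding genes, and initiation factor genes come next for RUNX2 at 87.3%.

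The peaks at these genes sat just before the start of transcription. RefSeq start windows matched 70 of the 89 members and 15813 protein-coding genes in all. Within 1 kb of a listed start, 63 of the 70 (90.0%, 80.5 to 95.9) had a RUNX2 peak against 52.2% of all genes, and 69 (98.6%, 92.3 to 100) had an MTA1 peak against 54.1%. The centre of the strongest RUNX2 peak lay at a median of -99 bp from the start (quartiles -163 and -62), and that of MTA1 at -101 bp (-156 and -58). Over all genes the medians were -88 and -85 bp. RUNX2 peaks were centred upstream in 53 of 63 members (84.1%, all genes 73.8%) and MTA1 peaks in 64 of 69 (92.8%, all genes 76.4%). The peak covered the start itself in 41 members for RUNX2 (65.1%, all genes 59.6%) and in 55 for MTA1 (79.7%, all genes 69.5%).

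**Figure D2:**
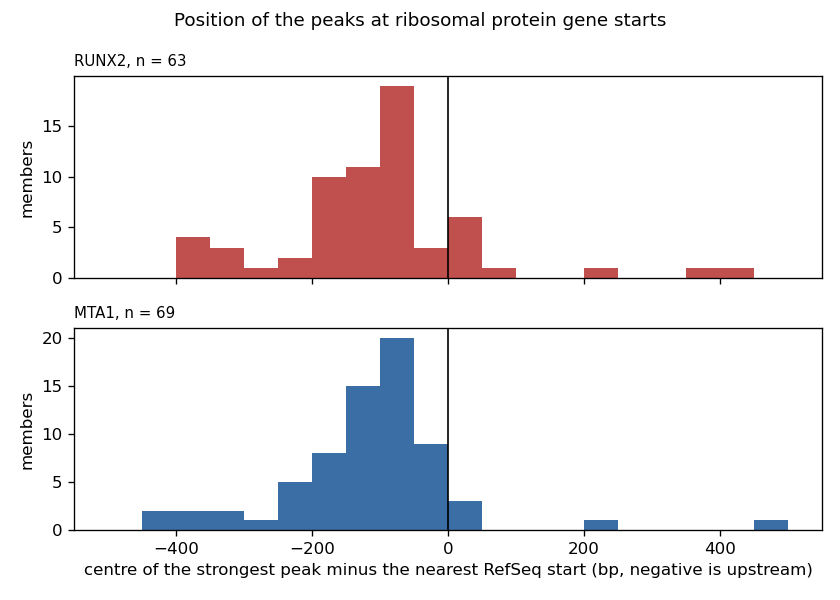
Distance in bp from the nearest RefSeq start to the centre of the strongest peak, in bins of 50 bp, for the 63 members with a RUNX2 peak (top) and the 69 with an MTA1 peak (bottom) within 1 kb of a start. Both distributions gather between the start and 200 bp before it, with medians of -99 and -101 bp.

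Each peak carries a score that ranks it within its list, and since the score's definition is not given in the sources used here, scores were compared between libraries only as percentiles of all peaks of the same list. The RUNX2 list held 61700 nuclear peaks (median score 6.70, range 3.0 to 108) and the MTA1 list 42683 (median 7.58, range 3.01 to 98.7). At the ribosomal protein genes the strongest RUNX2 peak had a median score of 12.2 (range 4.42 to 59.0), the 75.1st percentile. The strongest MTA1 peak had a median score of 16.5 (4.35 to 61.3), the 82.6th percentile. Over all genes with a peak the medians were the 71.3rd and 75.2nd percentiles, and the quartile ranges (58.8 to 87.9 against 49.7 to 86.0 for RUNX2, 68.4 to 92.9 against 50.7 to 90.9 for MTA1) overlapped widely. Initiation factor genes stood higher in both lists, at 80.7 and 90.2. Restricted to peaks at the start, the RUNX2 median of the members was 67.7, below the 72.0 of all genes, while for MTA1 it was 81.6 against 76.4.

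The highest-scoring 10% of each list, at scores from 23.3 for RUNX2 and 22.1 for MTA1, was reached by 19 of 89 members for RUNX2 (21.3%, all protein-coding genes 8.80%) and by 28 for MTA1 (31.5%, all protein-coding genes 13.7%). Counted only among genes with a peak, the shares were 23.2% against 17.6% and 32.2% against 26.7%. Of the 82 members with both peaks, 12 reached it in both lists (14.6%), close to the 1239 of 8791 protein-coding genes with both (14.1%). Among the 82 members with both peaks, the MTA1 percentile was the higher in 60 and the RUNX2 percentile in 22. That share, 73.2%, stood beside 62.0% over the 8791 protein-coding genes with both, and the median difference was 8.22 percentile points against 3.97. The percentiles of the 2 libraries rose together across genes, with a Spearman rho of 0.520 over the 82 members and 0.641 over the 8791 genes. These points share their 2 libraries and give no test.

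**Figure D3:**
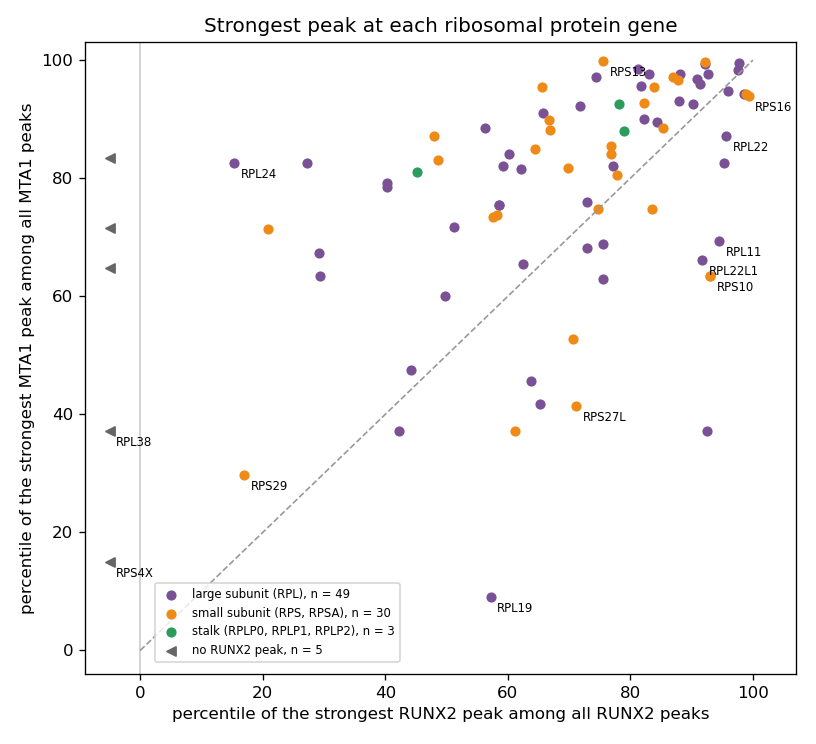
Score percentile of the strongest RUNX2 peak (horizontal) and MTA1 peak (vertical) at each member, coloured by the subunit its symbol names. The dashed line marks equal percentiles, and triangles at the left are the 5 members with an MTA1 peak only. Most points, 60 of 82, lie above the line, while RPL11, RPS10 and RPL22L1 lie well below it.

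In the large subunit, 49 of 52 RPL genes had a RUNX2 peak (94.2%) and 50 an MTA1 peak (96.2%). Several of the members' strongest sites belonged to this group. Peak coordinates are those of the files, whose labels name hg19 but whose positions fit GRCh38. RPL18 scored 43.8 for RUNX2 (97.8th percentile) at chr19:48619139-48619545 and 53.9 for MTA1 (99.5th) at chr19:48619205-48619572. RPL27 scored 42.1 for RUNX2 (97.5th percentile) and 42.3 for MTA1 (98.4th), with peaks at chr17:42998084-42998440 and chr17:42998125-42998452. Both genes were therefore near the top of both lists. RPL13A, which also has a role in silencing inflammatory mRNAs, scored 27.4 and 37.8. RPL23A scored 15.3 for RUNX2 and 42.8 for MTA1, and RPL37 scored 21.0 and 37.2, so these genes ranked higher for MTA1.

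The opposite order was seen at RPL11, RPL22 and RPS10. RPL11, which binds and inhibits MDM2, scored 31.3 for RUNX2 (94.5th percentile) and 11.2 for MTA1 (69.4th). RPL22 scored 34.3 for RUNX2 (95.6th) and 19.5 for MTA1 (87.1st). RPS10 scored 27.9 for RUNX2 (93.0th) and 9.74 for MTA1 (63.4th), and its readthrough RPS10-NUDT3 shares those peaks. In the ranking by MTA1 percentile these genes sit among members whose RUNX2 peaks were weaker.

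For some large subunit genes the strongest peak lay at the far end and not at the start. RPL35A had its strongest RUNX2 peak (33.6) near its far end and scored 11.4 at the start, while its strongest MTA1 peak (16.5) was at the start. RPL41, which encodes the shortest ribosomal protein, scored 26.4 for RUNX2 and 51.3 for MTA1 beside the end of ZC3H10, but 6.69 and 11.9 at its own start. RPL27A scored 16.6 for RUNX2 and 37.7 for MTA1 beside the end of TRIM66, and at its start it had an MTA1 peak of 17.2 and no RUNX2 peak. RPL17 scored 27.0 for RUNX2 at 1 end and 5.75 at its start, where MTA1 scored 6.17. Its readthrough gene RPL17-C18orf32 has the start of RPL17, scoring 5.75 and 6.17. RPL36A and its readthrough RPL36A-HNRNPH2 share a RUNX2 peak of 7.86 and an MTA1 peak of 13.2.

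Low scores in the large subunit were RUNX2 peaks of 4.42 at RPL24 (15.3rd percentile), 5.11 at RPL37A (27.2nd) and 5.22 at RPL12 (29.2nd). All of these genes had MTA1 peaks of middle or high rank, with scores of 16.5, 16.4 and 10.7. RPL19 was the reverse case, with the lowest MTA1 score of any member that had one (4.35, percentile 9.1) and a RUNX2 score of 7.55 (57.2nd percentile). RPL17 and RPL38 had MTA1 peaks of 6.17, at the 37.2nd percentile.

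In the small subunit, 30 of 34 genes had a RUNX2 peak (88.2%, 72.5 to 96.7) and 34 of 34 an MTA1 peak (100%, 89.7 to 100). RPS16 had the highest RUNX2 score of the members, 59.0 (99.3rd percentile) at chr19:39435868-39436247, and an MTA1 score of 27.4 (94.0th) at chr19:39435908-39436195. RPS3A scored 53.8 for RUNX2 (98.9th percentile) at chr4:151099300-151099659 and 27.8 for MTA1 (94.2nd) at chr4:151099321-151099623. Both peaks at RPS3A covered the ACCACA shown above. RPS13 had the highest MTA1 score, 61.3 (99.8th percentile) at chr11:17077660-17077985, with a RUNX2 score of 12.4 (75.5th) at chr11:17077705-17077872. RPS19, the gene most often mutated in Diamond-Blackfan anaemia, scored 19.8 for RUNX2 and 35.9 for MTA1. All of these sites lay at or above the 75.5th percentile of both lists, and which list ranked them higher differed from gene to gene.

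At the low end of the small subunit, RPS29 was weak in both lists, with 4.48 for RUNX2 (16.9th percentile) and 5.79 for MTA1 (29.7th). RPS27A, which is translated as a fusion with ubiquitin, scored 4.73 for RUNX2 (20.8th) and 11.8 for MTA1 (71.4th). RPS23 scored 8.29 for RUNX2 and 6.17 for MTA1. The stalk proteins RPLP0, RPLP1 and RPLP2, which recruit translation factors to the large subunit, had peaks of both factors at 3 of 3 genes. RPLP0 scored 14.0 for RUNX2 and 20.2 for MTA1, RPLP1 6.11 and 15.6, and RPLP2 13.6 and 25.2. MTA1 percentiles were the higher at each of the 3.

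**Figure D4:**
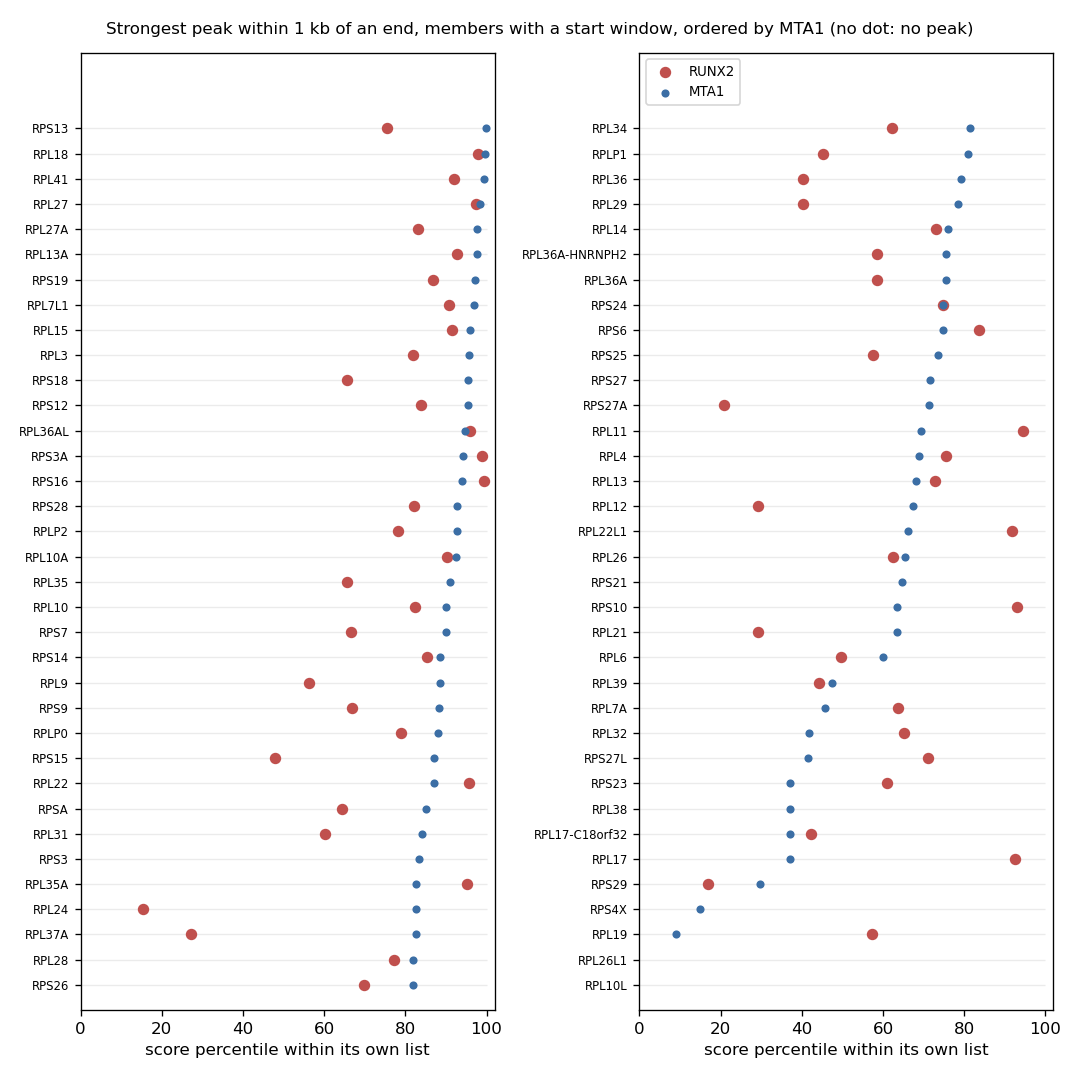
Score percentile of the strongest RUNX2 (large red dots) and MTA1 (small blue dots) peak within 1 kb of an end for each of the 70 members with a RefSeq start window, ordered by MTA1 from RPS13 at the top left to RPL10L at the bottom right. RPS27, RPS3, RPS21, RPL38 and RPS4X have a blue dot only, and RPL26L1 and RPL10L have none.

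The 5 members with an MTA1 peak and no RUNX2 peak were RPS27, RPS3, RPS21, RPL38 and RPS4X, 4 of them in the small subunit. Of all 19974 protein-coding genes, 10207 had an MTA1 peak and 8791 had both, so MTA1-only genes were not particular to the members. The count is too small to compare the subunits. RPS3, which also acts in DNA repair, scored 17.0 for MTA1 (83.4th percentile), and the nearest RUNX2 peak began 3023 bp from an end of the gene with a score of 22.54. RPS27 scored 11.8 for MTA1 (71.5th percentile), with the nearest RUNX2 peak at 3834 bp. RPS21 scored 10.0 (64.8th percentile), with the nearest RUNX2 peak at 4738 bp. RPL38, which is known for its part in the translation of Hox mRNAs in mice, scored 6.17 (37.2nd), and its nearest RUNX2 peak was 10080 bp away. RPS4X, the X-linked copy of RPS4, scored 4.84 (14.9th), and a RUNX2 peak of 4.33 lay 1026 bp from its end, just outside the limit. MTA1 scores at these 5 thus ran from the 14.9th to the 83.4th percentile. The files give peaks and no read counts, so signal below the peak callers' threshold cannot be seen and the depth of each library is unknown.

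RPL10L and RPL26L1 had no peak of either factor within 1 kb of an end. RPL10L, an intronless copy of RPL10 that is active in testis, had no RUNX2 peak within 78728 bp and no MTA1 peak within 78797 bp. RPL26L1 differed, because its listed RefSeq starts lie inside the gene's outermost span. There a RUNX2 peak of 19.7 and an MTA1 peak of 15.9 were centred 448 and 462 bp after a start, and counted at either outer end the nearest peaks were 1611 and 1558 bp away.

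Several members are paralogs of a ribosomal protein gene, and 8 such pairs were compared. RPL3 scored 15.7 for RUNX2 and 31.0 for MTA1, and RPL3L, the form of heart and skeletal muscle, scored 20.8 and 25.9. The peaks at RPL3L were also beside the end of MSRB1, so they cannot be assigned to RPL3L. RPL10 scored 16.0 and 22.2, where RPL10L had no peak. RPL22 scored 34.3 and 19.5 and RPL22L1 scored 25.7 and 10.3, so both members of this pair ranked higher for RUNX2. RPL36A scored 7.86 and 13.2 and RPL36AL scored 35.3 and 28.7, the higher of the pair in both lists, with the end of MGAT2 within 1 kb. RPL39 scored 5.99 and 7.29 and RPL39L scored 12.4 and 9.65. RPL39L is likewise the higher of its pair in both lists. RPL7 scored 11.9 for RUNX2 and 35.6 for MTA1, and RPL7L1 scored 24.3 and 34.5 at the end beside PEX39 but 9.78 and 15.2 at its start. RPL26 scored 8.60 for RUNX2 near its far end and 7.39 at its start, where MTA1 scored 10.2. RPL26L1 had no peak near its outer ends. RPS27 had no RUNX2 peak and an MTA1 score of 11.8, and RPS27L scored 10.6 and 6.61. The order within pairs thus differed from pair to pair, with 6 of 8 paralogs bearing peaks of both factors. The 2 genes of a pair lie at different sites, but near-identical copies elsewhere in the genome can share reads, and how such reads were treated is not given in the sources used here.

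Genes known for disease or stress roles were also read as lists. Members mutated in Diamond-Blackfan anaemia, among them RPS19, RPL5, RPL11, RPL35A, RPS7, RPS10, RPS24 and RPS26, had peaks of both factors. So had 92.1% of all members. RPS7 lay at the 66.7th percentile for RUNX2 and the 89.9th for MTA1, RPS24 at the 74.7th and 74.8th, and RPS26 at the 69.8th and 81.8th. RPL35A had the highest RUNX2 score of these named genes, 33.6, but near its far end, and scored 11.4 at its start. RPL11 came next for RUNX2 with 31.3, at its start. RPS19 had the highest MTA1 score of these genes, 35.9. Of the members that bind MDM2, only RPL5, RPL11 and RPL23 were listed. RPL5 scored 10.9 for RUNX2 and 24.6 for MTA1, RPL11 31.3 and 11.2, and RPL23 6.87 and 11.9.

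Proteins of the ribosome that go by other symbols were read beside the members. FAU, which encodes RPS30 fused to a ubiquitin-like protein, scored 14.9 for RUNX2 and 29.5 for MTA1. RACK1, a scaffold bound to the small subunit, had an MTA1 peak of 8.07 and no RUNX2 peak. Among 14 other genes whose mRNAs carry TOP tracts, 13 had peaks of both factors (92.9%, all protein-coding genes 44.0%). EEF1A1, an elongation factor that delivers tRNA to the ribosome, scored 15.6 for RUNX2 and 36.0 for MTA1. EEF2, the translocation factor, was the exception with no peak in either list. Of 16 genes for ribosome assembly and rRNA transcription, 14 had a RUNX2 peak (87.5%, 61.7 to 98.4, all protein-coding genes 50%). An MTA1 peak lay at 15 of the 16 (93.8%, 69.8 to 99.8, all protein-coding genes 51.1%). UBTF, the RNA polymerase I factor, had neither, and GTF3A, the 5S rRNA transcription factor, had only an MTA1 peak of 3.38, at percentile 1.9.

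Sequence features of the start windows were compared with the 15813 windows of the same length. The words of factors were sought on both strands, and the pyrimidine features were read on the gene's own strand. A C followed by at least 4 pyrimidines from the listed start was found in 44 of 70 members (62.9%, 50.5 to 74.1) and in 4.59% of all genes. The pyrimidine run covering the start had a median of 10 bases in the members and reached 25 in RPL7A, and 18 members had no pyrimidine at the listed start. The RUNX word TGTGGT was found in 13 members (18.6%, 10.3 to 29.7) against 11.1% of all windows, and TGCGGT in 5 (7.14%) against 8.72%. Either occurred in 18 members (25.7%, 16.0 to 37.6) against 18.9%, so that 52 of 70 had neither. CCGGAAG, a word of ETS factors, was found in 23 (32.9%, 22.1 to 45.1) against 14.1%. AAGATGG, a word of YY1, was found in 9 (12.9%) against 6.36%. GGGCGG, which SP factors bind, was found in 38 (54.3%) against 58.3%, and TATAAA in 7 (10.0%) against 9.75%. The intervals of the members exclude the share of all windows for the TOP tract and CCGGAAG and include it for the RUNX and YY1 words, GGGCGG and TATAAA.

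RUNX2 peaks were found at starts with and without the RUNX words. Of the 18 members with either word, 16 had a RUNX2 peak within 1 kb of the start, at a median percentile of 74.2 (range 40.2 to 98.9). Of the 52 without, 47 had one, at a median of 65.7 (15.3 to 99.3), and the ranges overlapped over most of their length. In 12 of the 18 windows with a word (66.7%, all genes 36.5%) the letters lay whole inside a RUNX2 peak, and in 13 (72.2%, all genes 33.0%) inside an MTA1 peak. The members include many more genes with a peak than the background does, and the part of that in these shares was not tested. RPS16, first in the RUNX2 ranking, had neither word, and RPS3A, next in order, had TGTGGT at 2 places, beginning 249 and 131 bases before the start.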

How the data were processed

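Peak lists were analysed as deposited, 1 for each antibody, each with chromosome, start, end and a score per peak. The score column was made by the authors, and what it measures is not given in the sources used here. The submitters' processing notes name CASAVA 1.4, Bowtie 0.12.8, MACS, MACS2 and the build hg19. The positions, however, fit GRCh38: a RefSeq GRCh38 start was found within 500 bp of 14.8% of the RUNX2 and 21.4% of the MTA1 peaks, against 1.51% and 1.50% after a shift of 100 kb, so RefSeq GRCh38 genes were used and peak coordinates are given as the files have them. Peaks on the mitochondrial genome were left out.

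For each gene the strongest peak with at least 1 base within 1 kb of either end was taken (Python 3.11.15, pandas 2.3.3, numpy 2.4.6, scipy 1.17.1, figures with matplotlib 3.10.9). A percentile is the percent of peaks in the same list with a lower score. Shares have exact Clopper-Pearson 95% intervals, which cover counting error over genes only. The peak search was tested on simulated peaks. Depth is unknown, because the files give no read counts.

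Members, lists and the rule for named genes were chosen with earlier results of these data known. The rule took members with no peak in a list, the 10 highest and 5 lowest scores of each list, both genes of each paralog pair, the readthrough genes, and list genes without a peak with FAU, RACK1 and EEF1A1. Members named outside it, such as RPL34 and RPL17, and the search for RUNX words inside peaks were chosen after values were seen. RefSeq start windows matched 70 members and 19 had none. Some genes that the rule takes are not reported here. Other windows, thresholds, overlaps, member sets and backgrounds were tried as alternatives.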

Additional observations from a re-analysis of the deposited data

How the results depend on the processing

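Of 91 values recomputed under other settings, 68 stayed within the interval of the reported value and 23 fell outside it. No excess over all protein-coding genes changed sign. Shares and percentiles cannot be negative, so a sign change could not occur there. Percentiles of all genes were not part of this count. The RUNX2 median percentile of the members was 75.1 at either end, above the 71.3 of all genes. At the starts it was 67.7, below the 72.0 of all genes. The reported shares exceed those of all protein-coding genes by 42.1 percentage points for RUNX2 and 46.7 for MTA1. With a window of 500 bp the MTA1 excess was 50.9, and with 3 kb the excesses were 34.3 and 39.6. Keeping only peaks that reached their list's median score gave shares of 76.4% (RUNX2), 85.4% (MTA1), 69.7% (both) and 68.5% (overlapping). The shares of all protein-coding genes fell as well, to 37.3% and 38.6%. The excesses there, 39.1 for RUNX2 and 46.8 for MTA1, stayed within the interval of the reported value. Keeping the top 10000 peaks per list gave 29.2%, 59.6%, 23.6% and 23.6%, excesses of 14.7 and 34.9 and median percentiles of 92.4 and 91.1, where fewer peaks enter by construction. All protein-coding genes stood at 14.5% (RUNX2) and 24.7% (MTA1) in that setting. With peaks wider than the narrowest, the MTA1 excess was 50.9. Without readthrough genes, RPS19BP1 and paralogs the MTA1 share was 100% and its excess 48.9. Against genes of at most 10 kb the excesses were 53.1 and 58.3. Asking that a shared stretch cover 50% of each peak left 76.4% overlapping. In genes with no other gene end within 1 kb, a setting chosen after seeing the data, the excesses were 50 and 53.4. Where construction does not show it, the cause was not tested. No paired analysis was possible because each antibody has 1 library. The share of members with a peak thus depends on the score threshold, as does the share of all genes. With the top 10000 peaks the fall was larger for RUNX2. That setting keeps a smaller part of the 61700 RUNX2 peaks than of the 42683 MTA1 peaks, so the lists are not cut alike. Peak lists hold no counts, so a missing peak cannot be told apart from low depth, and no control library was analysed here.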
